A study of Mus musculus with 6 samples.

Results

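The genes described are 10 stress genes: Trp53, which encodes the transcription factor p53, its target or partner genes Mdm2, Cdkn1a, Ccng1 and Phlda3, the growth arrest and DNA damage genes Gadd45a, Gadd45b and Gadd45g, and the polo-like kinase genes Plk2 and Plk3. They were chosen by symbol, each symbol had 1 row, and together they are 10 of 53090 rows in the deposited tables. Neutrophils of mice given a diet with 3,5-diethoxycarbonyl-1,4-dihydrocollidine (DDC), which injures the bile ducts, had been isolated from liver and from blood after 1 week, and RNA of 3 libraries per group was sequenced. All mice received the diet, so both groups share it, and no animals without it were analysed here. The sources used here give no genotype, strain, sex or age of the mice. Selection was magnetic and used Ly6G, a protein on the surface of neutrophils in mice; liver cells had first gone through a Percoll density gradient and blood through a lysis step. Tissue and preparation therefore cannot be told apart. The labels do not tie a liver to a blood library, and the spread that p-values measure is that between these samples, which may be technical.

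p53 is held at a low level by MDM2, a ubiquitin ligase that marks it for degradation, and is stabilised after DNA damage and other stresses, so its activity is set mainly at the protein. Once active it raises transcription of CDKN1A (p21, an inhibitor of cyclin-dependent kinases) and of MDM2 itself, a negative feedback loop. The GADD45 proteins are small stress-induced proteins that bind cell cycle kinases, PCNA and the kinase MAP3K4, which leads to p38 and JNK. Gadd45a is the member known as a p53 target, whereas Gadd45b is known to be induced by NF-kB and TGF-beta. PLK2 and PLK3 are early response kinases of the polo-like family. Mature neutrophils are known as cells that have left the cell cycle.

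Levels are CPM (a gene's counts relative to the library's total, on the usual scale) on library sizes scaled by the trimmed mean of M values (TMM). Of the 10 genes, 9 had enough counts to be tested. In edgeR's quasi-likelihood test, with p-values adjusted over 13458 tested rows, 5 of the 9 were called higher in liver (Gadd45b, Cdkn1a, Plk3, Gadd45g and Trp53), 1 was called lower (Gadd45a), and 3 were not called (Plk2, Mdm2 and Ccng1). Among all tested rows, 31.6% were called at an adjusted p under 0.05, 17.4% higher and 14.2% lower. The median log2 fold change was 0.97 over the 9 genes and 0.04 over all tested rows. Liver and blood libraries did not overlap for those 6 genes and overlapped for the other 3. Over all tested rows, liver lay wholly above blood in 25.8% and wholly below in 22.7%, together 48.5%. The calls of Gadd45b, Gadd45g and Plk3 were kept in each of 17 alternatives, while those of Cdkn1a and Trp53 were kept in 10 and 8 of them. Liver 3 had the highest summed markers of hepatocytes and of Kupffer cells, and haemoglobin was highest in blood 1. Without both of these libraries, 3 genes were called higher (Gadd45b, Gadd45g and Plk3) and 0 lower. In that test 1 of the 9, Gadd45a, was lower at an unadjusted p under 0.05.

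**Figure D1:**
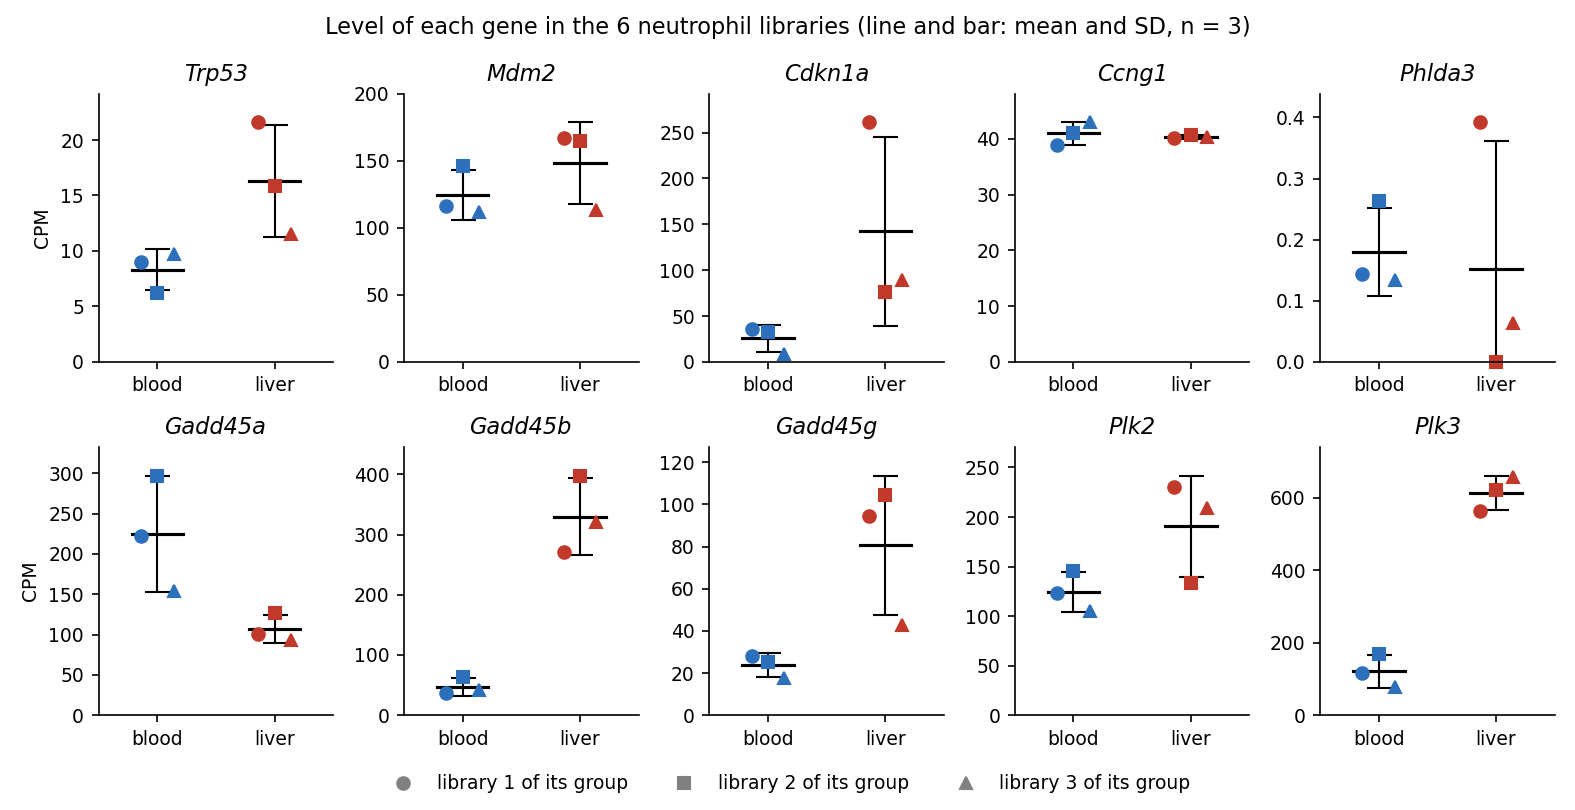
Level in CPM of the 10 genes in the 3 blood (blue) and 3 liver (red) libraries, on a linear axis from 0 that differs between panels; horizontal lines and bars are the mean and SD (n = 3), and the bar of Phlda3 in liver is cut at 0. Gadd45b, Gadd45g, Plk3, Cdkn1a and Trp53 were above every blood library in each liver library, Gadd45a was below, and Ccng1 lay between 39.0 and 43.0 CPM in all 6.

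Libraries held 13054673 to 17579669 counts. Neutrophil markers fell in 8 of 10 genes in liver, at a summed 8940.5 to 14318.3 CPM against 20910.1 to 32928.6 in blood, and none was at 0. Markers of other cells moved too. Monocyte markers were called higher in 4 of 6 tested genes (1027.9 to 1480.0 CPM summed in liver, 355.9 to 452.3 in blood), hepatocyte markers in 7 of 9 (273.8 to 491.1 against 107.9 to 153.5), Kupffer cell and macrophage markers in 4 of 8 (164.1 to 433.5 against 41.0 to 158.6) and liver endothelial markers in 3 of 4 (19.5 to 33.9 against 15.4 to 18.2). Platelet markers were called lower in 3 of 5 (7.57 to 15.4 against 34.4 to 198.6), lymphocyte markers in 2 of 6 (6.62 to 10.8 against 10 to 55.5), the 1 tested biliary marker, Krt7, was lower, and none of 5 erythroid markers was called (142.4 to 2726.4 against 366.0 to 33631.7). Krt19 and Sox9 were at 0 in blood, and every other marker had counts in both groups. Most of the hepatocyte sum in blood was Trf, at 145.7, 107.6 and 116.9 CPM in blood 1, 2 and 3. Alb had 2.44, 0.0876 and 0.47 CPM there and 7.25, 73.2 and 148.3 CPM in liver 1, 2 and 3. The endothelial genes Ptprb, Stab2 and Kdr were 37.6-fold, 9.37-fold and 9.15-fold higher in liver. Pecam1 went the other way and was not called, at means of 10.6 CPM in liver and 14.3 CPM in blood. Mitochondrially encoded rows took 9.0% to 12.5% of counts in liver and 4.30% to 6.69% in blood. The part of these shifts in the values below was not tested. In bulk libraries fewer cells of a type and less RNA per cell cannot be told apart.

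Trp53 itself was expressed at a low level. It lies on chromosome 11 from 69580359 to 69591873 on the plus strand (GRCm38, as for all positions given here). Its level was 21.6, 15.9 and 11.5 CPM in liver 1, 2 and 3 and 8.98, 6.22 and 9.73 CPM in blood 1, 2 and 3. Each liver library lay above each blood library, but liver 3 and blood 3 were close. The log2 fold change was 0.97 ± 0.33 (SE), a 1.96-fold difference, with an adjusted p of 0.047 in edgeR's quasi-likelihood test. The call was lost without any single library except liver 3 (adjusted p 0.071 to 0.18), and also with limma voom (0.055) and with library size alone as the scale (0.057).

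Mdm2, the ligase gene that is both regulator and target of p53, was not called. It lies on chromosome 10 from 117688875 to 117710758 on the minus strand. Its CPM were 167.2, 164.4 and 113.2 in the liver libraries and 115.9, 146.0 and 111.8 in the blood libraries. Liver 3 sat among the blood libraries, so the groups overlapped. The log2 fold change was 0.25 ± 0.21 (adjusted p = 0.39), with a 95% confidence interval from -0.22 to 0.72, and it was called in 0 of 17 alternatives.

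Cdkn1a, which encodes p21, differed most between libraries of one group. It lies on chromosome 17 from 29090976 to 29100727 on the plus strand. Its level was 261.2 CPM in liver 1, 76.1 in liver 2 and 89.5 in liver 3, against 36.3, 32.2 and 8.19 CPM in the blood libraries. Liver 1 stood far above the other 2 liver libraries, and blood 3 far below the other 2 blood libraries. The mean was 142.2 ± 103.2 CPM for liver against 25.6 ± 15.2 CPM for blood (SD, n = 3 each). Liver was 5.57-fold higher, a log2 fold change of 2.48 ± 0.71 (adjusted p = 0.041) and a 95% confidence interval from 0.76 to 4.19. The TEC gene model AC167363.2, not analysed here, overlaps its exons on the opposite strand. Without liver 1 it was 1.69 (adjusted p = 0.081), and the call was also lost without each other library except blood 3 (0.051 to 0.10) and with no filter on low counts (0.17). DESeq2 called it with an adjusted p of 6.6e-05. In liver 1, 2 and 3 the hepatocyte markers summed to 273.8, 323.4 and 491.1 CPM. Trf alone made up 254.2, 175.4 and 255.4 CPM of these sums. Every hepatocyte marker other than Trf was lowest in liver 1, with Alb at 7.25, 73.2 and 148.3 CPM in liver 1, 2 and 3. The Kupffer cell and macrophage markers summed to 233.3, 164.1 and 433.5 CPM. The part of these hepatocyte, Kupffer cell and macrophage markers in the Cdkn1a values was not tested.

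Ccng1, which encodes cyclin G1 and is a well-known p53 target, had close levels in both tissues. It lies on chromosome 11 from 40748552 to 40755311 on the minus strand. Its CPM were 40.1, 40.7 and 40.3 in liver and 39.0, 41.0 and 43.0 in blood. The liver libraries all fell inside the range of the blood libraries. Its log2 fold change was -0.02 ± 0.18 (adjusted p = 0.94), with a 95% confidence interval from -0.42 to 0.38, and its sign turned under upper quartile scaling (0.06) and with library size alone (0.05).

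Phlda3, a p53 target whose product restrains AKT at the membrane, was close to absent from the counts. It lies on chromosome 1 from 135766119 to 135769136 on the plus strand. With 7 counts summed over liver and 7 over blood it was not tested, and its level was 0.392, 0 and 0.0643 CPM in liver and 0.144, 0.263 and 0.134 CPM in blood. The 0 in liver 2 allows up to 0.181 CPM, the value of 3 counts there, for counting error only. No difference was detectable at this depth.

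The stretches before the RefSeq start sites of Cdkn1a, Mdm2 and Ccng1 are shown because these are p53 targets that did not move alike. Windows of 300 bases, 250 before and 50 from the start site, were searched on both strands. All 10 genes matched a RefSeq window, with 11 windows in all because Cdkn1a has 2 start sites. The p53 half-site consensus was found in 5 of the 11 windows, those of Cdkn1a (the first start site), Mdm2, Ccng1, Trp53 and Gadd45a, and in 8.36% of 32544 RefSeq windows. In the sequences below, 5′ to 3′ on the gene's strand (GRCm38.p6, RefSeq), the stretch ends before the outermost annotated start and capitals mark the p53 half-site matches.
Cdkn1a (chr17:29090729-29090975, plus strand): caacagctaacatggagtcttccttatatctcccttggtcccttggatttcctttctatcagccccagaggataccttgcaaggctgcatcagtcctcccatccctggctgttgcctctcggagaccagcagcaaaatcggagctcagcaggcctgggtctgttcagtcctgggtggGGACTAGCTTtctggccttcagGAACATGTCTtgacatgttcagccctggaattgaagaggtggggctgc
Mdm2 (chr10:117710759-117711008, minus strand): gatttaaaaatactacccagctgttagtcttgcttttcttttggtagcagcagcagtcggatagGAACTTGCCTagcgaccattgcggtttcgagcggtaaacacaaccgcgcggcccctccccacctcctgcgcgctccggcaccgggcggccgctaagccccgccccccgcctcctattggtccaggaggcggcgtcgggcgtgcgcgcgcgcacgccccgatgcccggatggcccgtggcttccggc
Ccng1 (chr11:40755312-40755536, minus strand): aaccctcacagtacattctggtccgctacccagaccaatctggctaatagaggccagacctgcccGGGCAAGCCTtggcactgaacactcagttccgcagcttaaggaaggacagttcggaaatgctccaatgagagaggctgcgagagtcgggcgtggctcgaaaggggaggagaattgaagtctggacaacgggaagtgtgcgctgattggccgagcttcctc
The Cdkn1a stretch held 2 matches, from -73 to -64 and from -51 to -42 relative to the RefSeq start site at position 0. The Mdm2 match ran from -186 to -177 and the Ccng1 match from -185 to -176. Gadd45a, also known as a p53 target but called lower in liver, had its match from -40 to -31 and is not shown. Only single half-sites inside the window were searched, so pairs of them and sites elsewhere in these genes were not assessed. Their part in the levels was not tested. These are matches of letters in a short window, not measured binding.

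The 3 Gadd45 genes moved in opposite directions. Gadd45b and Gadd45g rose in liver and Gadd45a fell, so that the most abundant paralog per length was Gadd45a in every blood library and Gadd45b in every liver library.

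Gadd45b lies on chromosome 10 from 80930073 to 80932204 on the plus strand. Its CPM were 271.0, 398.0 and 320.5 in liver and 36.7, 64.2 and 41.2 in blood. The liver libraries all stood far above the blood libraries. Means were 329.9 ± 64.0 CPM and 47.3 ± 14.8 CPM (SD, n = 3 each), a log2 fold change of 2.80 ± 0.27, or 6.97-fold, with an adjusted p of 0.00023. It was the largest fold change of the 9 genes tested, and it ran from 2.60 to 3.06 when 1 library was left out.

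Gadd45g lies on chromosome 13 from 51846678 to 51848468 on the plus strand. It had 94.6, 104.3 and 42.6 CPM in liver and 28.3, 25.4 and 17.7 CPM in blood. Liver 3 was the low library of its group and still above all of blood. The difference was 3.38-fold, a log2 fold change of 1.76 ± 0.34 (adjusted p = 0.0051).

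Gadd45a, the paralog known as a p53 target, lies on chromosome 6 from 67035096 to 67037457 on the minus strand. It had 100.8, 126.3 and 92.9 CPM in liver and 221.9, 297.1 and 154.5 CPM in blood. Every liver library was below every blood library, and blood varied more than liver. The level was 2.10-fold lower in liver, a log2 fold change of -1.07 ± 0.25 (adjusted p = 0.011). Its call was kept without each single library, and lost without liver 3 and blood 1 together (-1.02, adjusted p = 0.076). The RNA gene E230016M11Rik overlaps its exons on the opposite strand, with 259 counts over the 6 libraries against 5087 in liver and 8779 in blood for Gadd45a; since the use of strand in counting is not stated, the 2 cannot be told apart. Gadd45a was the only one of the 10 genes with deposited counts that were not whole numbers, in each of the 6 libraries.

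Levels of different genes were compared per kilobase of annotated exon, with the exons of all transcripts of a gene merged. That length can exceed the length of the RNA present, which was not assessed. On that scale Gadd45a made up 72.7%, 73.1% and 68.1% of the summed Gadd45 level in blood 1, 2 and 3 and 18.5%, 17.4% and 18.1% in liver 1, 2 and 3. Gadd45b made up 13.4%, 17.5% and 20.1% in blood and 55.3%, 60.9% and 69.4% in liver. Neither share overlapped between groups, and the exact two-sided permutation test gave p = 0.10 for each, the smallest that 3 against 3 libraries allow. The share of Gadd45g was 11.7% ± 2.26 in blood and 20.1% ± 6.95 in liver (SD, n = 3 each), and those groups overlapped (exact two-sided permutation p = 0.20). The summed level of the 3 paralogs was 177.4 ± 51.1 CPM per kilobase in blood and 336.7 ± 65.0 in liver.

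**Figure D2:**
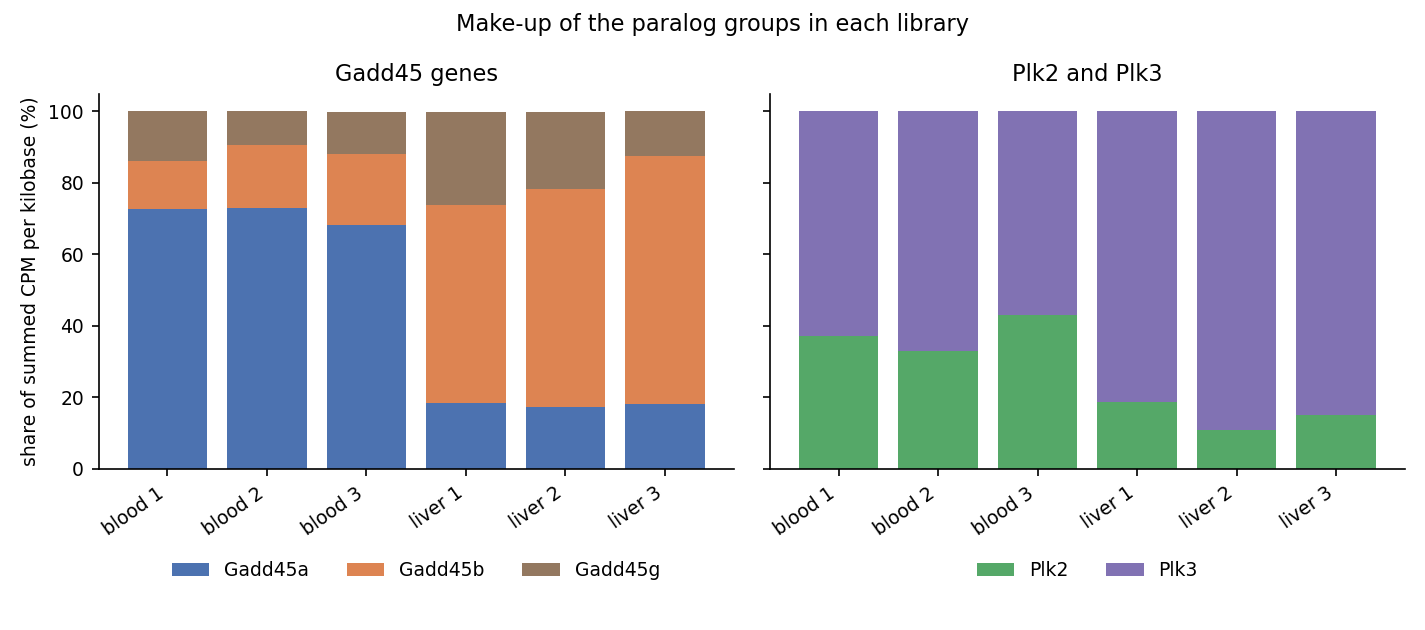
Make-up of the summed level, in percent of CPM per kilobase of exon, of the 3 Gadd45 genes (left) and of Plk2 and Plk3 (right), with 1 stacked bar per library. Gadd45a filled 68.1% to 73.1% of the bar in blood and 17.4% to 18.5% in liver, and Plk3 56.9% to 67.1% in blood and 81.2% to 89.2% in liver.

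Plk3 rose in liver, and its paralog Plk2 did not pass the test. Plk3 lies on chromosome 4 from 117128655 to 117133963 on the minus strand. Its CPM were 562.1, 621.6 and 656.5 in liver and 116.4, 167.6 and 78.5 in blood. The liver libraries were close to each other and far above blood, with means of 613.4 ± 47.7 CPM and 120.8 ± 44.7 CPM (SD, n = 3 each). Liver was 5.08-fold higher, a log2 fold change of 2.34 ± 0.28 (adjusted p = 0.00061). The coding gene Tctex1d4 overlaps exons of Plk3 on the opposite strand and had 263 counts over the 6 libraries, against 29139 counts in liver and 4701 in blood for Plk3.

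Plk2 lies on chromosome 13 from 110395046 to 110400844 on the plus strand. Its CPM were 230.2, 133.3 and 209.2 in liver and 123.0, 145.9 and 105.5 in blood. Liver 2 fell below blood 2, so the groups overlapped. The log2 fold change was 0.61 ± 0.24, with a 95% confidence interval from 0.08 to 1.14, an unadjusted p of 0.027 and an adjusted p of 0.075. It was called higher in 4 of 17 alternatives, among them that without liver 2 (0.80, adjusted p = 0.027). Per kilobase, Plk3 took 62.2% ± 5.11 of the summed level of the pair in blood and 85.1% ± 4.00 in liver (SD, n = 3 each, exact two-sided permutation p = 0.10, the smallest possible).

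The start sites of the pair are shown because the cyclic AMP response element (CRE) is a known site for early response genes, and the stretches differ in it. The CRE, TGACGTCA, was found in 1 of the 11 windows, that of Plk2, and in 1.80% of all windows. Its half-site TGACG, which is counted also inside the full element, was found in 3 of the 11 windows (Plk3, Plk2 and Mdm2) and in 20.9% of all windows. Capitals mark both.
Plk3 (chr4:117133964-117134213, minus strand): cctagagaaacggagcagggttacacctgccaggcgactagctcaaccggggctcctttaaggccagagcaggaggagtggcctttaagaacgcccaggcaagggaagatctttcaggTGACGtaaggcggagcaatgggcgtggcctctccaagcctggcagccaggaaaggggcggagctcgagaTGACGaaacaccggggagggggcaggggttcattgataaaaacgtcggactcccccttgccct
Plk2 (chr13:110394794-110395043, plus strand): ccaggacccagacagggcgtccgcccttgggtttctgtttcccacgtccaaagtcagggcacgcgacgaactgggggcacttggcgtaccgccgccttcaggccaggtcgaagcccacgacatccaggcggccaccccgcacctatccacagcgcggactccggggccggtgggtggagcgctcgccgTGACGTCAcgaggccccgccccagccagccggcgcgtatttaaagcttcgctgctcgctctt
The Plk2 element lay from -62 to -55. The Plk3 half-sites lay from -132 to -128 and from -63 to -59. For the kappaB site of NF-kB only a narrow pattern was searched, and forms of the site outside it were not assessed. That pattern was found in 1 of the 11 windows, that of Trp53, at -5 to 4 across the start site, and in 1.61% of all windows. The AP-1 sequence TGANTCA was found in 0 of the 11 and in 7.79% of all. No match says only that these letters are not in the window.

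**Figure D3:**
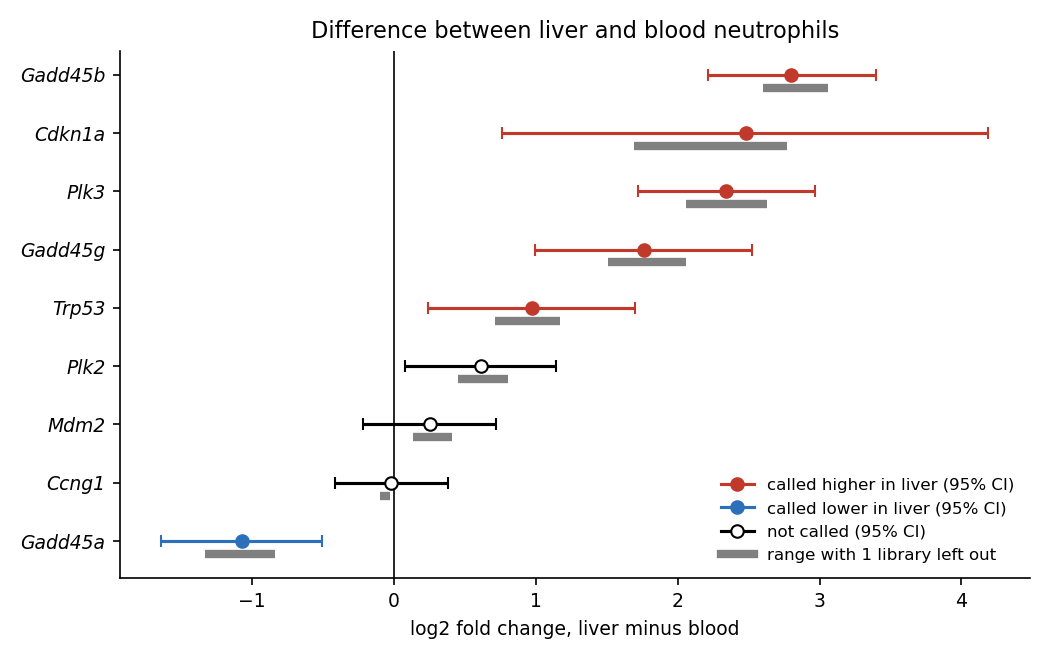
Log2 fold change of the 9 tested genes, liver minus blood, with the 95% confidence interval of edgeR's quasi-likelihood fit (points and thin bars) and the range when 1 library was left out (thick grey bars). Gadd45b, Plk3 and Gadd45g had intervals from 0.99 upward, and the interval of Cdkn1a was the widest, from 0.76 to 4.19.

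Ranked per kilobase of merged annotated exons, the order of the 10 genes differed between the tissues. In liver Plk3 came first at 242.4 CPM per kilobase and Gadd45b second at 207.6, and their libraries overlapped. Gadd45g (68.6), Gadd45a (60.5), Plk2 (42.5), Cdkn1a (40.0) and Mdm2 (29.2) followed, with overlapping libraries between each neighbouring pair except Gadd45a and Plk2. Ccng1 (11.5), Trp53 (4.04) and Phlda3 (0.0975) were last and apart from their neighbours. In blood Gadd45a came first at 127.3 and stood apart from Plk3 at 47.7. Plk3, Gadd45b (29.8), Plk2 (27.8), Mdm2 (24.5) and Gadd45g (20.3) overlapped from neighbour to neighbour. Ccng1 (11.7) overlapped neither neighbour, and Cdkn1a (7.20) and Trp53 (2.06) overlapped each other.

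The spread within a group also differed between the genes. On the log2 scale Cdkn1a spanned 1.78 in liver and 2.13 in blood, the widest of the 9 tested genes in both groups. Ccng1 spanned 0.02 and 0.14, the narrowest in both. Plk3 spanned 0.22 in liver and 1.09 in blood. Liver 1 was the highest liver library for Trp53, Mdm2, Cdkn1a and Plk2, and liver 2 for the 3 Gadd45 genes and Ccng1. Blood 3 was the lowest blood library for 6 of the 9 tested genes (Mdm2, Cdkn1a, Gadd45a, Gadd45g, Plk2 and Plk3).

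For each tested gene the 2 most alike genes were sought among 6260 named coding genes with a mean of at least 10 CPM. Likeness was the root mean square difference of centred log2 CPM over the 6 libraries, and the genes compared share these libraries and their depth. Gadd45b was nearest to Rilpl2 (difference 0.191, Pearson r = 0.996) and Cstb (0.243). Plk3 was nearest to Osgin2 (0.204) and Tecpr1 (0.204), Gadd45g to Btbd19 (0.197) and Ptpn23 (0.203), and Gadd45a to Prkaa1 (0.104) and Rnd1 (0.121). Cdkn1a, the gene with the widest spread, had the largest differences, with Crem at 0.353 and Cbfa2t3 at 0.367, though Pearson r was 0.978 for each. Trp53 was nearest to Sec22c (0.086) and Nucb2 (0.118), Mdm2 to Zkscan6 (0.063) and Rrbp1 (0.071), Plk2 to Fam96a (0.129) and Rps15a (0.137), and Ccng1 to Plod1 (0.037) and Dyrk1a (0.041). For Ccng1, the gene with the narrowest spread, Pearson r was only 0.786 and 0.56, so a small difference did not mean a high correlation.

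Of 30 other p53 targets listed, 27 were tested, and 6 were called higher, 3 lower and 18 not at all, with a median log2 fold change of 0.38 against 0.04 over all tested rows. Over all tested rows 17.4% were called higher and 14.2% lower, so the share of these targets called was near the background. Those higher were Aen, Bax, Epha2, Gdf15, Pmaip1 and Sulf2, and those lower Ppm1d, Trp53inp1 and Xpc. Sulf2, a sulfatase acting on heparan sulfate, was 8.74-fold higher, at 31.2 ± 5.39 CPM in liver and 3.54 ± 1.62 in blood (adjusted p = 0.00058). Gdf15, a stress cytokine, had 9.74 ± 5.63 CPM against 1.20 ± 0.724 (adjusted p = 0.0051), a log2 fold change of 3.01 that was 2.04 without liver 3 and blood 1 together (adjusted p = 0.035). Epha2, a receptor tyrosine kinase, had 486 counts in liver and only 5 in blood, so the size of its log2 fold change, 6.27, is uncertain (6.87 without blood 1 and 5.62 without blood 3). Xpc, which recognises damaged DNA in nucleotide excision repair, had 243.6, 219.6 and 188.1 CPM in the blood libraries and 32.0, 24.8 and 34.0 CPM in the liver libraries, and fell by a log2 fold change of -2.84 ± 0.21 (adjusted p = 7.5e-05). Ppm1d, a phosphatase that switches p53 off, fell from 36.3 ± 7.24 to 19.0 ± 1.46 CPM, a log2 fold change of -0.93 (adjusted p = 0.013), and that call was lost without liver 3 and blood 1 together (0.091).

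**Figure D4:**
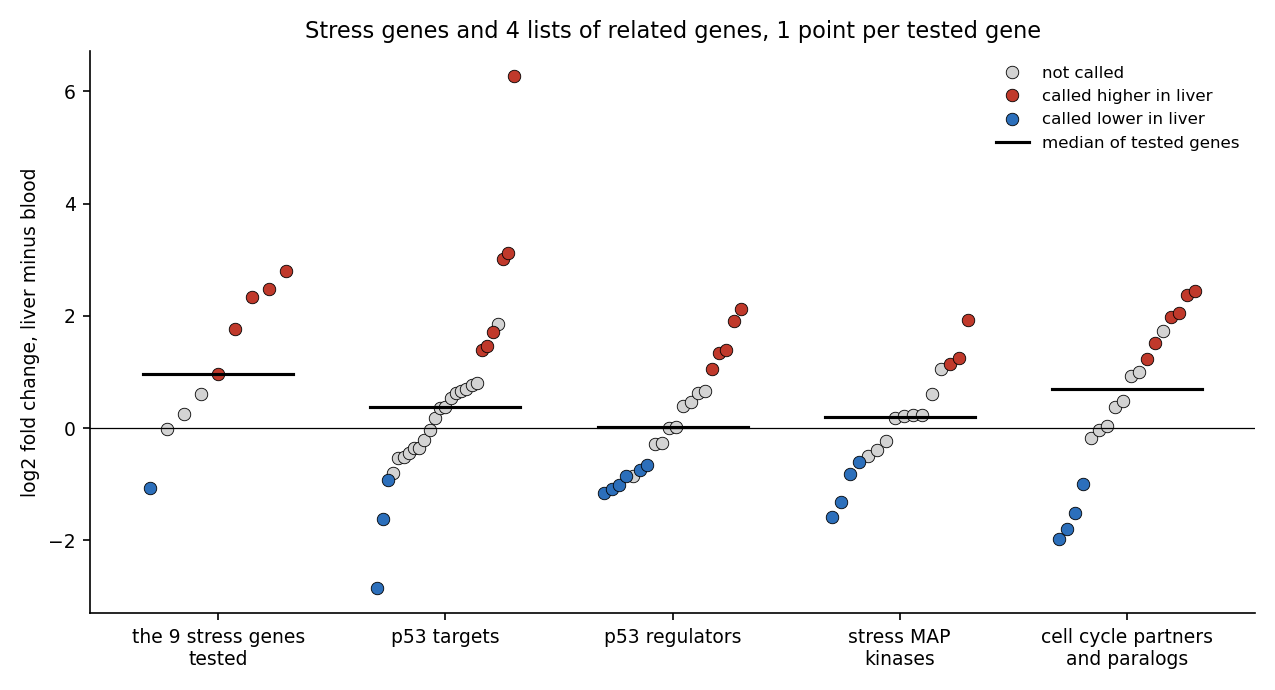
Log2 fold change, liver minus blood, of the 9 tested stress genes and of the tested genes of 4 lists of related genes, 1 point per gene ordered by value within its list, with the median as a black line. Medians were 0.97 for the stress genes, 0.38 for p53 targets, 0.02 for p53 regulators, 0.20 for stress MAP kinases and 0.71 for cell cycle partners and paralogs, and each list held genes called in both directions.

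Of the genes that regulate p53, 5 were called higher and 6 lower of 20 tested, with a median of 0.02, against 17.4% higher and 14.2% lower over all tested rows. Mdm4, the MDM2 relative that blocks p53's activation domain, had 90.9, 119.2 and 126.6 CPM in liver and 162.1, 183.7 and 180.9 CPM in blood, with no overlap. Its log2 fold change was -0.65 ± 0.19 (adjusted p = 0.027), and the call was lost without liver 1, blood 2 or blood 3 (0.057 to 0.093). Atm, the kinase that signals double-strand breaks to p53, rose 2.54-fold, at 16.8 ± 4.88 CPM against 6.65 ± 2.71 (adjusted p = 0.026), a call lost without liver 1, liver 3, blood 1 or blood 3 (0.061 to 0.085). Chek1, a checkpoint kinase, was 4.37-fold higher (adjusted p = 0.026, lost without liver 1, blood 1 or blood 2, at 0.073 to 0.12, and with a replicate block, at 0.056). Usp10, a deubiquitinase, was 3.77-fold higher (adjusted p = 0.010; log2 fold change 1.91, and 1.31 without liver 3 and blood 1 together) and Bmi1, a Polycomb protein gene, 2.63-fold higher (adjusted p = 0.0081). All 5 rises of this list were lost without liver 3 and blood 1 together, when 5 genes of the list were higher at an unadjusted p under 0.05. The p53 relatives Trp63 and Trp73 and the MDM2 inhibitor gene Cdkn2a were not tested: Trp73 and Cdkn2a had 0 counts in all 6 libraries, and Trp63 had 1 count in liver and 0 in blood.

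Among the stress MAP kinases listed, 3 were called higher and 4 lower of 16 tested, with a median of 0.20, beside the same 17.4% and 14.2% over all tested rows. Map3k4, the kinase that GADD45 proteins bind, was not called, at 12.8 ± 4.48 CPM in liver and 10.8 ± 3.77 in blood (adjusted p = 0.65). Mapk14, which encodes p38 alpha, fell from 359.8, 349.5 and 339.2 CPM in blood to 127.2, 102.2 and 119.3 CPM in the liver libraries, a log2 fold change of -1.59 ± 0.18 (adjusted p = 0.00049). Mapkapk2, which encodes the kinase directly after p38, rose 3.81-fold, from 167.8 ± 65.5 to 638.6 ± 127.9 CPM (adjusted p = 0.0018). Mapk13, another p38 gene, had a log2 fold change of -1.32 (adjusted p = 0.0040). Map3k8 rose 2.37-fold (adjusted p = 0.028), a call lost without liver 2, blood 1 or blood 3 (0.084 to 0.095).

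Of the cell cycle partners and paralogs, 6 were called higher and 4 lower of 18 tested, with a median of 0.71, where 17.4% and 14.2% of all tested rows were. Cdkn1b, which encodes p27, the relative of p21, fell while Cdkn1a rose, from 481.0, 706.7 and 374.6 CPM in blood to 146.3, 120.6 and 129.0 CPM in the liver libraries. On the log2 scale the difference was -1.98 ± 0.26 (adjusted p = 0.00084). Phlda1, a relative of Phlda3, had 184.9, 63.8 and 51.6 CPM in liver and 16.8, 20.4 and 20.3 CPM in blood, and was 5.22-fold higher (adjusted p = 0.0080). As with Cdkn1a, liver 1 was the high library, and without it the log2 fold change of Phlda1 was 1.58 in place of 2.38 (adjusted p = 0.0046). Ccnd1, cyclin D1, was 5.41-fold higher (adjusted p = 0.0040), at 8.56 ± 2.82 CPM against 1.57 ± 0.609. Cdk4, its partner kinase, was 4.13-fold higher (adjusted p = 0.036), a call lost without any single library except blood 1 (0.057 to 0.10). Without blood 1 its log2 fold change was 2.98 in place of 2.05 (adjusted p = 0.012). The mitotic genes Plk1, Cdk1 and Ccnb1 had too few counts to be tested.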

How the data were processed

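RNA was measured in 3 liver and 3 blood libraries of Ly6G-selected neutrophils, made with a stranded low-input total-RNA kit, per the labels' protocols. Expected counts for each gene are what the authors deposited. The submitters' processing notes name FastQC 0.11.5, STAR, RSEM, limma and GRCm38; the sources used here give neither their roles, other versions and filters nor the use of strand, so overlapping and antisense genes cannot be told apart. Each file has 53090 rows, of which 98.9% matched GENCODE release M21 (GRCm38) by identifier without version, the source of positions and exon lengths.

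Expected counts were rounded (7.43% were not whole), filtered with filterByExpr (minimum count 10, minimum total 15) and scaled by TMM. Liver was tested against blood with the robust quasi-likelihood F test of edgeR 4.0.16 under R 4.3.3, with p-values Benjamini-Hochberg adjusted over 13458 rows and called under 0.05. Standard errors derive from the F statistic. At total counts of 13054673 to 17579669, 3 counts equal 0.181 to 0.263 CPM, and floors cover counting error only. No replicate pair was 1 library counted again (chi-square per degree of freedom 52.1 to 79.0 over rows with at least 10 counts). Alternatives used DESeq2 1.42.0 and limma 3.58.1, other scalings and filters, a replicate block and fewer libraries. All 6 libraries were kept.

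The 10 genes, the 4 lists, the marker lists and the motifs were chosen with earlier results of these data known. All 10 genes are described. From each list the text names up to 4 called genes with the largest absolute change and a mean of at least 1 CPM, plus Mdm4, Map3k4, Atm and Ppm1d. The lists of called p53 targets, of genes not tested and Krt7, Krt19 and Sox9 were given after their values were seen. For each tested gene the 2 most alike genes are named, by log2 CPM with a prior count of 2.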

Additional observations from a re-analysis of the deposited data

How the results depend on the processing

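The values of the 9 tested genes were recomputed under 17 alternatives. Gadd45b, Gadd45g and Plk3 stayed called in all of them, with log2 fold changes from 2.60 to 3.06, from 1.51 to 2.18 and from 2.06 to 2.63. Leaving out 1 library at a time gave 3 to 4 of the 9 called higher and 1 lower, 1732 to 1993 rows called higher and 1323 to 1626 lower, 2 to 4 p53 regulators higher and 3 to 6 lower, and 1 to 3 stress MAP kinases higher. Without liver 3 and blood 1 together, 1195 rows were called lower, 3 of the 9 genes were called higher and 0 lower, and 0 p53 regulators and 1 stress MAP kinase were called higher by edgeR (1 and 5 at an unadjusted p under 0.05 for the 2 counts of 0); fewer samples entered that fit. Ccng1 had a log2 fold change of 0.06 under upper quartile scaling and 0.05 with library size alone, and Map3k4 ran from -0.06 (without liver 3) and -0.05 (without blood 2) to 0.44 (without liver 1), none of them called; the cause was not tested. Same-numbered liver and blood libraries deviated from their group means with correlations of 0.054, 0.156 and 0.023, and the other pairs ran from -0.175 to 0.12. Liver 1 and liver 2 correlated best with the blood library of their own number, and liver 3 with blood 1 (0.12). The labels do not tie these libraries, so the numbers were not taken to pair samples. With the number as a replicate block, 2322 rows were called higher and 2312 lower, and 4 of the 9 genes higher (all but Trp53, adjusted p = 0.051) and 1 lower; of the other genes named, Chek1 lost its call (0.056) and no other did. Depth limits Phlda3, at 7 counts per group.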
